A study of Mus musculus with 23 samples.

Results

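The BCL2 family of survival and death genes was followed by 10 of the 32285 genes of the single-cell expression matrices. The 10 were taken by gene symbol as a fixed list, chosen with earlier results of these data known. Bcl2, Bcl2l1, Mcl1, Bcl2a1b and Bcl2a1d hold cells alive, and Bax and Bak1 form the pore in the outer mitochondrial membrane. Bcl2l11, Bbc3 and Bad start the death signal. The animals were 2-month-old C57BL/6 mice (C57BL/6N in the study's methods) that carried a Stat5b point mutation made by CRISPR/Cas9 and base editing, which replaces the tyrosine in the names Y665F (with phenylalanine) and Y665H (with histidine), and WT mice. No treatment was given, and the mutation sat in the germline, so that every cell of an animal carried it. Lymph node (LN) was sampled from WT mice (2 libraries), mice labelled heterozygous for Y665F (3 libraries) and mice labelled homozygous for Y665F (2 libraries). Spleen CD45+ cells gave 1 library each for WT, Y665H and Y665F, and the study combined 3 mice in each of them. Bone marrow (BM) gave 2 libraries each for WT, Y665H and Y665F. The zygosity of the spleen and BM mutants is not given in the labels.

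BCL2 proteins decide whether the mitochondrial outer membrane stays closed. BCL2, BCL-xL (from Bcl2l1), MCL1 and A1 (from the Bcl2a1 genes) bind and hold back BAX and BAK, whereas the BH3-only proteins BIM (Bcl2l11), PUMA (Bbc3) and BAD bind the survival proteins and free the pore formers, after which cytochrome c leaves and caspases are switched on. In lymphocytes, IL-7 and IL-2 act through STAT5 and are known to raise Bcl2. In BM, MCL1 is needed by stem cells and granulocytic cells and BCL-xL by late erythroid cells and platelets. BIM sets how long T cells, B cells and granulocytes live.

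STAT5 binds DNA at paired TTC and GAA triplets. The 250 bases before the annotated starts of all 10 genes were therefore read from RefSeq (GRCm38.p6), which gave 16 starts. The spaced motif TTCNNNGAA, read on both strands, was found in 0 of these 16 windows and in 7.02% of 32851 windows of the same length before all genes, and the same triplets with 4 bases between them in 0 of 16 and in 5.85%. The shorter TTCC or GGAA, the core that ETS factors also read, stood in 15 of 16 and in 93.4%. A motif that is missing from these windows says nothing about binding elsewhere in the gene. Promoters are shown for Bcl2, Mcl1 and Bak1, the 3 members with a difference from WT that passed the test in a gated class, with TTCC and GGAA in capitals, from 5′ to 3′ on the strand of the gene.
Bcl2, chr1:106714291-106714540, strand -: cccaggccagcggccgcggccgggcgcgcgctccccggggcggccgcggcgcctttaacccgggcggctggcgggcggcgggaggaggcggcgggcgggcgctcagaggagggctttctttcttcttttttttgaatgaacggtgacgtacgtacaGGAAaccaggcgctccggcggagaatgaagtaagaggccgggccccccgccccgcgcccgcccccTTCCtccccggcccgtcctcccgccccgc
Mcl1, chr3:95658471-95658720, strand +: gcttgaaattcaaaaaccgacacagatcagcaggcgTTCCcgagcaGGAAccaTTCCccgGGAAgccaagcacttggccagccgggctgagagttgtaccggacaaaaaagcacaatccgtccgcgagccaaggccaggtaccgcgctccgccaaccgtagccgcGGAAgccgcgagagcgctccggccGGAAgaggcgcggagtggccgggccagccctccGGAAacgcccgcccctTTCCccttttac
Bak1, chr17:27028628-27028877, strand -: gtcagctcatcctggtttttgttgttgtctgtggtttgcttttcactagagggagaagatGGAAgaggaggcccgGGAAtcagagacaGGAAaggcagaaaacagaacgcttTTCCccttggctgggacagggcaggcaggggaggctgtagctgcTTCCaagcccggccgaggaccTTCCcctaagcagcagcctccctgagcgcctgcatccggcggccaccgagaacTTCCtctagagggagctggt
The Bcl2 window held 2 such cores, the Mcl1 window 8 and the Bak1 window 7. The genes themselves lie, in GRCm38, at chr1:106538178-106714274 (Bcl2), chr3:95658788-95663176 (Mcl1) and chr17:27019810-27029009 (Bak1) in the Ensembl annotation. The RefSeq starts behind the windows differ from the ends of these spans, and the Bak1 window lies inside the Bak1 span.

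LN libraries held 2621583 to 16101373 UMIs (unique molecules), spleen libraries 36889328 to 47206322 and BM libraries 16399123 to 55768078. LN Y665F het replicate 3 and LN Y665F homo replicate 1 stood apart, with a median of 368 and 395 UMIs per barcode against 874 to 3116 in the other 5. BM Y665F replicate 2 held no barcode under 500 genes, against 8.89% to 13.9% in the other 5 BM libraries. Libraries of a tissue shared at most 2.89% of the barcodes of the smaller library. In BM, Xist was read in replicate 1 of each genotype and Y-linked genes in replicate 2, so that replicate number and sex coincided there. Cells were put into classes by marker UMIs, and the UMIs of each class were summed per library, so that a library counted as a single replicate, and levels are given as counts-per-million (CPM), scaled to the UMIs of that class. A level is compared between libraries and not between genes, apart from the number of Bcl2 UMIs per Bcl2l11 UMI, which is compared between libraries as well. In LN, a T-cell receptor beta contig was found in 86.0% to 98.2% of the barcodes of T-cell gates and in 0% to 4.25% of those of the B gate.

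In LN, Bcl2 rose in Y665F CD4 T cells, with 1 mutant allele as well as with 2. In Ccl5- CD8 T cells, it passed only in a test for a trend over the number of alleles. In CD4 T cells, its level was 114 and 133 CPM in the WT libraries, 217, 223 and 267 CPM in the heterozygous libraries and 266 and 208 CPM in the homozygous libraries. All 5 mutant libraries lay above both WT libraries, and the heterozygous and homozygous values overlapped. Here and below, the share of all genes whose libraries separate in this way was not counted, so that separation is a description and not a test. The mean was 1.91 times WT in heterozygotes (log2 fold change 0.88, SE 0.15, adjusted p = 4.48e-04, edgeR quasi-likelihood test) and 1.92 times WT in homozygotes (log2 fold change 0.81, SE 0.21, adjusted p = 0.0454). The change per allele was 0.48 on the log2 scale (adjusted p = 0.0159, with 0.818% of genes passing), and homozygotes against heterozygotes gave -0.06 (adjusted p = 0.992). The level in homozygous replicate 1 rested on 14 UMIs and that in heterozygous replicate 3 on 15. Across all genes of the CD4 T class, 0.362% passed in the heterozygous and 0.613% in the homozygous comparison.

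CD8 T cells were split by Ccl5, a chemokine of memory and effector cells. In Ccl5- CD8 T cells, Bcl2 stood at 159.8 and 174 CPM in WT, 266, 233 and 213 CPM in heterozygotes and 377 and 226 CPM in homozygotes. The 377 CPM came from homozygous replicate 1, a shallow library, and the 226 CPM of replicate 2 lay among the heterozygous values. The part of depth in this result was not tested. Every mutant library again lay above both WT libraries, without a share of all genes to set beside it, and the gates share their libraries. The change per allele passed (log2 fold change 0.40, SE 0.09, adjusted p = 0.0318, with 0.417% of genes passing), and homozygotes against WT did not (log2 fold change 0.78, adjusted p = 0.0506, with 0.243% of genes passing). In Ccl5+ CD8 T cells, the WT libraries already held 319 and 303 CPM, and the mutant libraries 445, 422 and 323 CPM (heterozygous) and 409.9 and 372 CPM (homozygous). All mutant libraries lay above both WT libraries there too, but the differences from WT did not pass (adjusted p = 0.933 and 0.69). The gap between CD8 T and CD4 T cells in the homozygous change was 0.08 on the log2 scale with SE 0.21 (adjusted p = 0.99), in a comparison that 0.272% of genes passed. In Treg cells, which hold fewer barcodes, Bcl2 was 207 and 222 CPM in WT and 471 and 249 CPM in homozygotes (adjusted p = 0.807). In B cells, it was 98.3 and 115 CPM in WT, 118, 127 and 164 CPM in heterozygotes and 136 and 107 CPM in homozygotes, where WT and homozygotes overlapped.

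**Figure D1:**
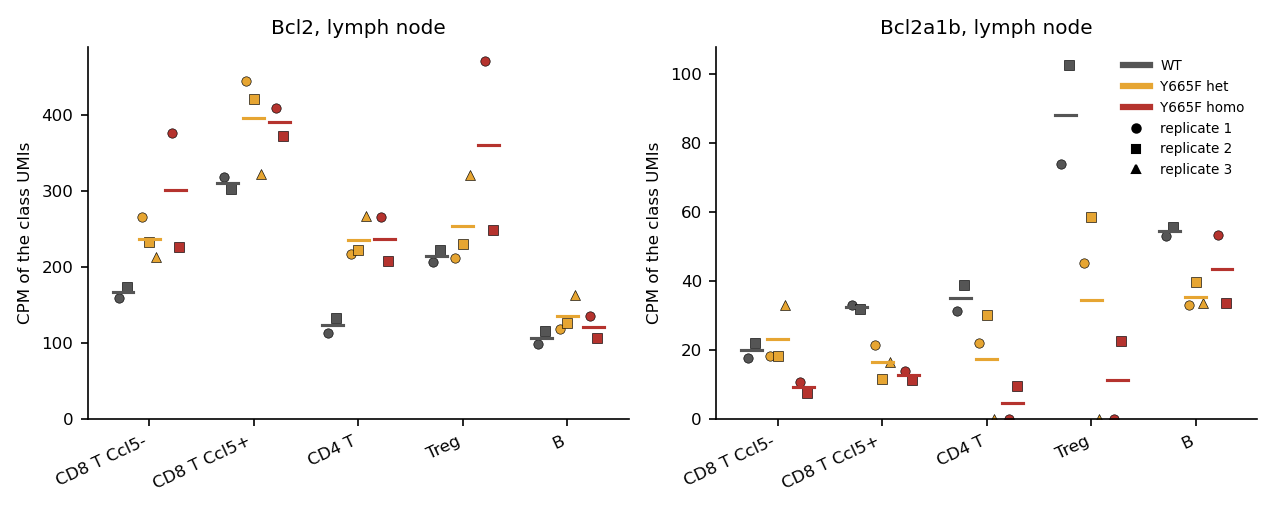
Level of Bcl2 and Bcl2a1b (CPM of the class, vertical axes) in each LN library by cell class and genotype, where each point is a library, its shape is the replicate number and a line is the group mean. Bcl2 was higher in all 5 mutant libraries than in both WT libraries in CD4 T cells and in both CD8 T gates. The Bcl2a1b values of homozygotes lay below both WT values in the T-cell gates, on few UMIs, and overlapped WT in B cells.

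The homozygous CD4 T call was the less stable of the pair. It was lost (adjusted p over 0.05) when either WT library, heterozygous replicate 1 or 2, or either homozygous library was left out. It was also lost with DESeq2, at 500 genes, with T-cell receptor contigs required, with stricter gates, without the low-count filter, with the top 5% of barcodes left out, without both shallow libraries and with a block for the replicate number (adjusted p = 0.15), and its adjusted p ranged from 0.0415 to 1.0. No single library carried the heterozygous call. With both shallow libraries left out, heterozygotes against WT still passed (log2 fold change 0.88, adjusted p = 0.00446), and the trends in CD4 T and Ccl5- CD8 T cells did not (adjusted p = 0.062 and 0.257). Over all alternatives, the adjusted p of the heterozygous call and the 2 trends ranged from 3.88e-05 to 1.0, 9.84e-04 to 0.405 and 1.51e-04 to 0.258. The trend in CD4 T cells was also lost without WT replicate 1 or WT replicate 2, and that in Ccl5- CD8 T cells without either WT library, heterozygous replicate 2 or homozygous replicate 1 and at 500 genes. With DESeq2, no LN call on a member remained. In the same CD4 T gate, 6 genes of naive T cells summed to 2940.3 and 3090.2 CPM in WT, 3956, 4015 and 4221 CPM in heterozygotes and 4422 and 3923 CPM in homozygotes, and 8 memory genes summed to 249 and 167, 99.7, 171 and 409.7, and 228 and 125 CPM. The part of this shift in the Bcl2 result was not tested.

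The other survival genes showed no change that passed in any LN gate. Mcl1, which guards naive and memory lymphocytes alike, was 488 and 601 CPM in WT CD4 T cells and 475 and 470.0 CPM in homozygous ones, a log2 fold change of -0.20 (SE 0.18). Across the 5 classes, its change from WT in homozygotes lay between -0.20 and 0.21. Bcl2l1 was tested in Ccl5- CD8 T cells alone, where it stood at 7.76 and 8.35 CPM in WT and 8.07 and 12.4 CPM in homozygotes (adjusted p = 0.814). Bcl2a1b, the A1 gene, ran lower in homozygotes: it was 31.4 and 39.0 CPM against 0 and 9.45 CPM in CD4 T cells and 17.8 and 21.9 CPM against 10.8 and 7.64 CPM in Ccl5- CD8 T cells. The homozygous libraries lay below both WT libraries in all 4 T-cell gates, with log2 fold changes of -2.19 to -1.24, and none passed (adjusted p = 0.22 to 0.629). These gates share the same libraries, and the share of all genes that separated in this way was not counted. Few UMIs stood behind the homozygous levels: 4 in CD4 T, 3 in Treg, 12 in Ccl5- CD8 T and 18 in Ccl5+ CD8 T cells. The lowest homozygous value was 0 in CD4 T and Treg cells. Since a count of 0 allows up to 3 counts, these zeros cannot be read as a lower level. Of the 31-base words of Bcl2a1b, 72.7% also occur in Bcl2a1a or Bcl2a1d, and for Bcl2a1d 89.1% occur in the other copies, so that the split of UMIs between these copies is uncertain. Bcl2a1d held 0 to 17.8 CPM in LN gates and was tested in B cells alone (-0.75, adjusted p = 0.86).

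None of the death genes of LN passed in any gate. The trigger Bcl2l11 stood at 24.8 and 33.4 CPM in WT and 53.8 and 39.1 CPM in homozygous Ccl5- CD8 T cells (log2 fold change 0.54, SE 0.27, adjusted p = 0.574). Bbc3, a p53 target, was 59.7 and 121 CPM in WT and 109 and 76.9 CPM in homozygous Ccl5+ CD8 T cells, and its values overlapped. Its homozygous change differed between CD8 T and CD4 T cells by 1.59 on the log2 scale (SE 0.56), a difference that did not pass (adjusted p = 0.363). The pore gene Bax had positive log2 fold changes in homozygotes in all 4 T-cell gates, from 0.35 to 0.61, with adjusted p between 0.523 and 0.747. In CD4 T cells, it was 135 and 130.2 CPM in WT and 209 and 168 CPM in homozygotes. Bak1 lay between 16.4 and 38.5 CPM over the 7 libraries in Ccl5+ CD8 T cells, and Bad, a trigger tied to nutrient signals, between 15.0 and 25 CPM in Ccl5- CD8 T cells.

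Over the 5 LN gates, 34 member tests were made for each comparison. In homozygotes against WT, 1 of 34 passed (9 at an unadjusted p under 0.05), beside 0.2% of all gene tests. In heterozygotes against WT, 1 of 34 passed (6 unadjusted), beside 0.125%, and in the trend 2 of 34 passed (11 unadjusted), beside 0.297%. Between homozygotes and heterozygotes, edgeR passed 0 of 34 (4 unadjusted) beside 0.0407%, and DESeq2 also passed 0. Of all 31953 gene tests, 2604, 1859, 2704 and 1783 had an unadjusted p under 0.05 in these comparisons, in the same order. The 16 tests not made fell on members under the low-count limit, among them Bcl2a1d in all 4 T-cell gates and 6 of the 10 members in Treg cells. Among 14 further BCL2 relatives and 11 genes that act after the mitochondria, none passed edgeR in any LN gate: in Ccl5- CD8 T cells 0 of 4 relatives and 0 of 11 downstream genes passed in homozygotes (0 and 2 unadjusted), and in B cells 0 of 6 and 0 of 11 (0 and 0 unadjusted). DESeq2 passed 0 of their tests over all LN gates and comparisons. Some of these tests could not pass, since DESeq2 gave them no adjusted p. In the trend in B cells, 0 relatives and 0 downstream genes had one, and in each Treg comparison 1 relative had one. The unadjusted share of all genes is not given for single LN gates. The median log2 fold changes of the relatives and the downstream genes were -0.05 and -0.04 in Ccl5- CD8 T cells and 0.16 and -0.12 in B cells.

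Summed over all barcodes of an LN library, without gates, more members passed. Bcl2 was 134 and 163 CPM in WT, 269, 234 and 235 CPM in heterozygotes and 371 and 249.6 CPM in homozygotes (log2 fold change 1.14, SE 0.16, adjusted p = 0.00614). Bcl2a1b fell from 39.3 and 39.3 CPM to 16.6 and 17.9 CPM (log2 fold change -1.08, adjusted p = 0.00295), and Bcl2a1d from 5.38 and 4.54 CPM to 1.58 and 1.05 CPM (adjusted p = 0.0269). The Bcl2a1d call was lost without WT replicate 1, without either homozygous library and with DESeq2. Here 4.6% of all genes passed. In such sums, fewer cells of a type and less RNA per cell cannot be told apart. The B gate held 43.7 and 26.8% of WT barcodes and 11 and 15.9% of homozygous barcodes, and CD8 T cells 16.5 and 24.8% and 21.3 and 30.8%.

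In spleen, Bcl2 showed the widest gap between Y665F and WT of all members in CD4 T, CD8 T and NK cells, and Y665H lay below WT there. With a single library per genotype no test can be made. The 95% intervals of levels are exact Poisson intervals, and those of log2 ratios are exact binomial intervals. Both cover counting error alone. In CD4 T cells, Bcl2 was 335 CPM (320.2 to 349) in WT, 213 CPM (202 to 225) in Y665H and 848 CPM (821 to 875) in Y665F. In Ccl5- CD8 T cells, the values were 334 CPM (319 to 350.4), 287 CPM (271 to 304) and 945 CPM (909 to 983) in the same order. Ccl5+ CD8 T cells held 457, 403 and 1054 CPM, and NK cells 388, 321 and 1054 CPM. The log2 ratio of Y665F to WT was 1.5 (1.41 to 1.59) in Ccl5- CD8 T, 1.44 (1.26 to 1.63) in NK, 1.34 (1.26 to 1.42) in CD4 T and 1.20 (1.13 to 1.28) in Ccl5+ CD8 T cells. It was smaller in Treg cells, at 0.36 (0.19 to 0.53), and slightly below 0 in B cells, at -0.19 (-0.37 to -0.03). For Y665H against WT, it was -0.65 (-0.75 to -0.55) in CD4 T and -0.51 (-0.76 to -0.27) in Treg cells. Other features of these libraries moved as well. In CD4 T cells, Gm42418, a gene that collects ribosomal RNA reads, took 1.51%, 1.11% and 3.18% of the UMIs in WT, Y665H and Y665F, Malat1 took 2.60%, 2.53% and 1.77%, and mitochondrial genes took 3.22%, 3.03% and 3.87%. The 8 memory genes summed there to 372, 447 and 643 CPM and the 6 naive genes to 2554, 2397 and 2535 CPM, and in Ccl5+ CD8 T cells the memory genes summed to 5690.4, 4838 and 8347 CPM. Genes of other cells differed too: 7 neutrophil genes summed to 21.8, 1413 and 2353 CPM in CD4 T, 83.1, 6565 and 347 CPM in Ccl5- CD8 T, 27.3, 776 and 2736 CPM in Ccl5+ CD8 T and 26.5, 376 and 392 CPM in NK cells, so that they were higher in Y665F and in Y665H than in WT. The 4 hemoglobin genes summed to 8.69, 182 and 1.80 CPM in CD4 T cells, highest in Y665H. The part of these features in the Bcl2 values was not tested.

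**Figure D2:**
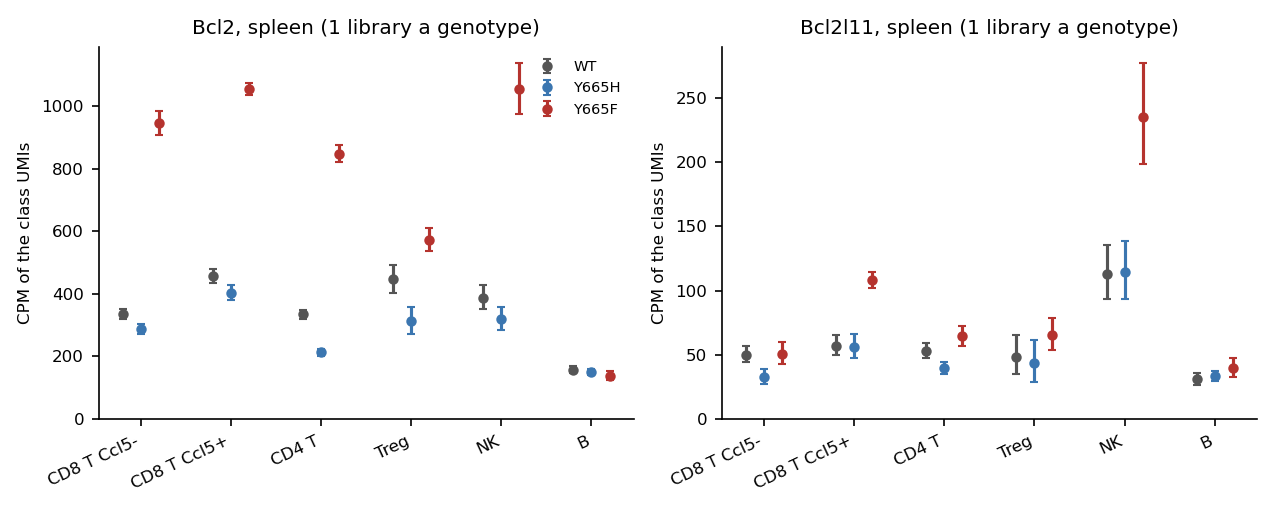
Level of Bcl2 and Bcl2l11 (CPM of the class, vertical axes) in the WT, Y665H and Y665F spleen libraries by cell class, with exact Poisson 95% intervals of the count as bars. Bcl2 in Y665F lay near 1054 CPM in Ccl5+ CD8 T and NK cells against 457 and 388 CPM in WT, whereas in B cells the 3 libraries lay close together.

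Bcl2l11, whose protein BCL2 holds back, was also higher in Y665F in some of these classes. It was 57.2 CPM (49.9 to 65.3) in WT, 56.1 CPM (47.3 to 66.1) in Y665H and 108 CPM (102 to 115) in Y665F Ccl5+ CD8 T cells. In NK cells, the values were 113, 115 and 235 CPM. In Ccl5- CD8 T cells, WT and Y665F gave 50.2 and 51.0 CPM and Y665H 32.6 CPM. The number of Bcl2 UMIs per Bcl2l11 UMI was 6.66 in WT, 8.78 in Y665H and 18.5 in Y665F Ccl5- CD8 T cells, and 6.28, 5.40 and 13.2 in CD4 T cells. In LN, the same ratio in Ccl5- CD8 T cells was 6.44 and 5.21 in WT, 6.77, 5.84 and 17.8 in heterozygotes and 7.0 and 5.78 in homozygotes. The 17.8 of the shallow heterozygous replicate 3 rested on 4 Bcl2l11 UMIs. In LN CD4 T cells, the ratio was 2.76 and 3.93 in WT, 5.94, 4.12 and 7.5 in heterozygotes and 14.0 and 4.63 in homozygotes. There, homozygous replicate 1 rested on 1 Bcl2l11 UMI and heterozygous replicate 3 on 2.

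Among the remaining members with more than 3 UMIs in both libraries, gaps between Y665F and WT were narrower than that of Bcl2 in CD4 T, CD8 T and NK cells, and in Treg and B cells some were wider. Mcl1 in CD4 T cells was 333, 368 and 358 CPM in WT, Y665H and Y665F, and in B cells 589.7, 605 and 521 CPM. Bax in Ccl5+ CD8 T cells was 106, 103 and 112 CPM. Bcl2l1 in the same cells was 11.3, 9.88 and 19.9 CPM, a log2 ratio of Y665F to WT of 0.82 (0.34 to 1.32). In Ccl5- CD8 T cells, it ran the other way, at 9.25, 5.11 and 4.5 CPM and a log2 ratio of -1.04 (-2.09 to -0.11), which rested on 12 UMIs in Y665F. Bcl2a1b was highest in Y665H in CD4 T cells (37.9, 48.5 and 38.1 CPM), and its log2 ratio of Y665F to WT was -0.94 (-1.61 to -0.32) in Ccl5- CD8 T cells. Bcl2a1d was lower in Y665F than in WT in B cells, with a log2 ratio of -0.89 (-1.56 to -0.27), and in Treg cells, at -1.49 (-2.74 to -0.29) from 11 and 16 UMIs. Bak1, Bbc3, Bad and Bcl2a1d held 9.24 to 23.4 CPM in CD4 T cells of the 3 libraries.

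In spleen neutrophils, Mcl1 was lower in Y665F than in the other libraries. In this gate, of 68 WT, 358 Y665H and 169 Y665F barcodes, Mcl1 was 2544 CPM (2335 to 2767), 2692 CPM (2600.3 to 2786) and 677 CPM (635 to 721). Bcl2l11 was likewise lowest in Y665F, with 74.7, 62.8 and 12.0 CPM. The median UMI count of these barcodes was 2897.5 in WT, 2999 in Y665H and 7401 in Y665F. The 7 neutrophil genes, of which S100a8, S100a9 and Retnlg also set this gate, took 17.0%, 18.8% and 34.9% of their UMIs. The 13 immediate early and stress genes summed to 10452, 9992 and 2285 CPM. The part of these differences in the Mcl1 value was not tested.

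In BM, Mcl1 rose in Y665F against WT in the GMP, monocyte and megakaryocyte gates and Bak1 fell in the GMP and monocyte gates, and no member passed the test between Y665H and WT. The 8 gates were HSC/MPP (stem and multipotent progenitors), lymphoid-primed, GMP (granulocyte-monocyte progenitors), monocyte, megakaryocyte, hemoglobin-rich, B lineage and a gate led by Cox6a2 that was set with genes of plasmacytoid dendritic cells and stays unnamed here. In GMP cells, Mcl1 was 29.3 and 23.6 CPM in the WT, 21.8 and 29.5 CPM in the Y665H and 46.6 and 85.1 CPM in the Y665F libraries. Both Y665F libraries lay above the other 4 libraries. The share of all genes that separated in this way was not counted in any BM gate. The difference from WT passed (log2 fold change 1.21, SE 0.28, adjusted p = 0.00346), as did that from Y665H (log2 fold change 1.14, SE 0.26, adjusted p = 0.00202). In the monocyte gate, the values were 46.0 and 29.5 CPM, 34.6 and 40.6 CPM and 70.6 and 122 CPM (log2 fold change 1.36, SE 0.31, adjusted p = 0.0115 against WT). In the megakaryocyte gate, they were 15.5 and 25.9 CPM, 25.2 and 27.6 CPM and 51.0 and 89.1 CPM (log2 fold change 1.64, SE 0.39, adjusted p = 0.0102 against WT). Against Y665H, Mcl1 also rose in the lymphoid-primed gate (33.3 and 42.1 CPM to 64.4 and 105 CPM, adjusted p = 0.0245). The share of all genes that passed against WT was 23.2% in GMP, 6.3% in monocyte and 8.65% in megakaryocyte cells, and against Y665H 35.3%, 14.5% and 17.6%, with 16.1% in lymphoid-primed cells.

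The other 5 BM gates gave log2 fold changes of Mcl1 against WT of 0.87 to 1.32 that did not pass. HSC/MPP cells held 40.6 and 55.1 CPM in WT and 76.3 and 99.4 CPM in Y665F (adjusted p = 0.239). In hemoglobin-rich cells, WT (30.9 and 19.8 CPM) and Y665F (27.1 and 67.0 CPM) overlapped. Y665F replicate 2 was the higher of the Y665F libraries in all 8 gates. Within replicate 1, the log2 ratio of Y665F to WT was 0.67 in GMP, 0.62 in monocyte and 1.72 in megakaryocyte cells, and within replicate 2 it was 1.85, 2.05 and 1.78. Without Y665F replicate 2, which holds no low-gene barcodes, the differences from WT were 0.78, adjusted p = 0.0951 in GMP, 0.99, adjusted p = 0.285 in monocyte and 1.23, adjusted p = 0.087 in megakaryocyte cells on the log2 scale, none of which passed. Over all alternatives, the adjusted p of these 3 calls ranged from 1.20e-04 to 0.0951, 0.00194 to 0.285 and 1.84e-04 to 0.154. The GMP call was also lost without WT replicate 2 and with the gates on detected markers (adjusted p = 0.0731), and the megakaryocyte call without either WT library. Against Y665H, leaving out Y665F replicate 2 or Y665H replicate 1 ended the Mcl1 calls in all 4 gates, and leaving out Y665H replicate 2 ended the lymphoid-primed call. DESeq2 ended the calls against Y665H in the lymphoid-primed and megakaryocyte gates, and the gates on detected markers ended the lymphoid-primed call (adjusted p = 0.0633). With a block for the replicate number, which in BM coincides with sex, Mcl1 also passed against WT in the lymphoid-primed (adjusted p = 0.0473), B lineage (adjusted p = 0.0301) and Cox6a2 gates (adjusted p = 0.0287), and every BM call on a member held.

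**Figure D3:**
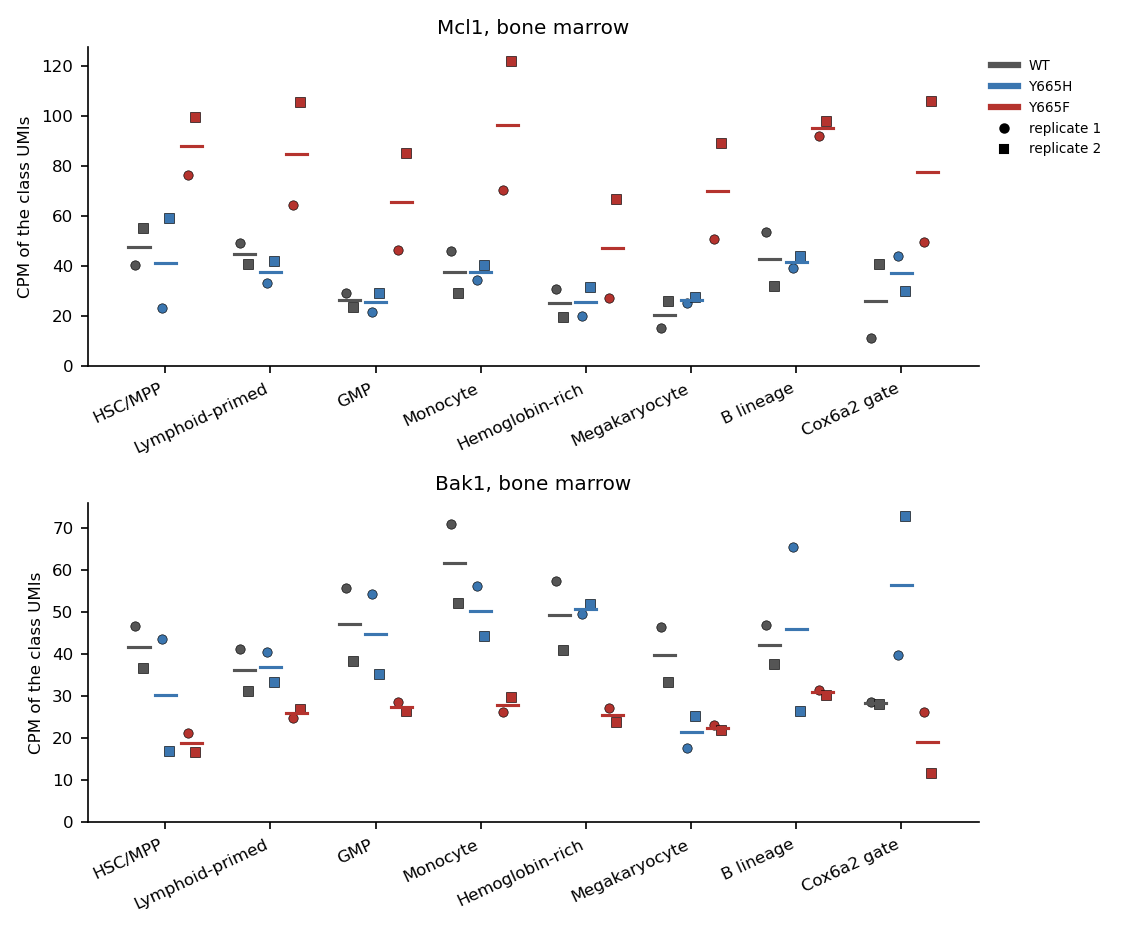
Level of Mcl1 and Bak1 (CPM of the class, vertical axes) in each BM library by cell class and genotype, where each point is a library, its shape is the replicate number and a line is the group mean. The Y665F values of Mcl1 lay above both WT values in every gate but the hemoglobin-rich one, and replicate 2 was the higher of the Y665F libraries. The Y665F values of Bak1 lay below both WT values in the GMP and monocyte gates.

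Bak1, whose protein opens the mitochondrial pore, moved the other way. In GMP cells, it was 55.8 and 38.4 CPM in the WT, 54.4 and 35.2 CPM in the Y665H and 28.5 and 26.5 CPM in the Y665F libraries, and both Y665F libraries lay below the other 4. Replicate 1 was the higher library in WT and in Y665H, and replicate number coincides with sex in BM. The gap of Bak1 between Y665F and WT was thus wider in replicate 1 than in replicate 2. It fell against WT (log2 fold change -0.83, SE 0.25, adjusted p = 0.0176) and against Y665H (log2 fold change -0.94, SE 0.23, adjusted p = 0.00345). In monocyte cells, it was 71.1 and 52.2 CPM in WT and 26.2 and 29.7 CPM in Y665F (log2 fold change -1.12, SE 0.30, adjusted p = 0.029). The log2 fold change against WT was below 0 in all 8 gates, between -1.12 and -0.30. In GMP cells, the call against WT was lost without WT replicate 1 (-0.73, adjusted p = 0.0752) and without Y665F replicate 2 (-0.73, adjusted p = 0.116), and that against Y665H without Y665H replicate 1. The adjusted p of the call against WT ranged from 0.0055 to 0.116 over all alternatives. In monocyte cells, leaving out either Y665F library, DESeq2 (adjusted p = 0.0759) and stricter gates (adjusted p = 0.0593) ended the call against WT, whose adjusted p ranged from 0.0159 to 0.256. The call against Y665H (log2 fold change -1.03, SE 0.30, adjusted p = 0.025) was lost without any 1 of the 4 libraries compared and with DESeq2. Bax, the other pore former, fell in GMP cells against Y665H, from 192 and 202 CPM to 146 and 132 CPM (log2 fold change -0.73, SE 0.24, adjusted p = 0.0228). Against WT (186 and 197 CPM), its log2 fold change was -0.57 (adjusted p = 0.0922), and it was below 0 in all 8 gates. The Bax call against Y665H was lost without Y665F replicate 2, without either Y665H library and with the gates on detected markers.

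No change of Bcl2 passed in any BM gate. In GMP cells, it was 74.8 and 76.7 CPM in the WT, 65.5 and 57.7 CPM in the Y665H and 70.0 and 67.5 CPM in the Y665F libraries (log2 fold change -0.25, SE 0.22, against WT). The WT libraries themselves differed widely in other gates, with 220.0 and 95.8 CPM in lymphoid-primed and 271 and 134 CPM in monocyte cells. In HSC/MPP cells, Bcl2 was 106 to 131 CPM in WT, 53.7 to 59.5 CPM in Y665H and 58.4 to 85.3 CPM in Y665F. All mutant libraries lay below both WT libraries there, and the tests did not pass. For this gate and the separations that follow, no share of all genes was counted. In B lineage cells, Bcl2 was 46.9 and 24.4 CPM in WT and 42.5 and 65.1 CPM in Y665F (adjusted p = 0.303). Bcl2l1 could be tested in 3 gates. In B lineage cells, it was 6.70 and 13.2 CPM in WT and 26.8 and 25.7 CPM in Y665F, which did not overlap (log2 fold change 1.15, adjusted p = 0.204). In GMP cells, it was 8.52 and 3.12 CPM in WT and 6.44 and 8.25 CPM in Y665F (adjusted p = 0.538). Megakaryocyte cells held 15.5 and 13 CPM in WT and 21.9 and 20.8 CPM in Y665F (adjusted p = 0.444). Bcl2l11 in hemoglobin-rich cells was 18.1 and 17.2 CPM in the WT, 20.9 and 17.4 CPM in the Y665H and 39.5 and 35.9 CPM in the Y665F libraries, where the Y665F libraries lay above the other 4 and the test did not pass (log2 fold change 1.08, adjusted p = 0.0765). Bad in GMP cells lay between 25.6 and 31.7 CPM and Bbc3 between 3.96 and 6.63 CPM over the 6 libraries. Bcl2a1b and Bcl2a1d were at 0 to 5.72 CPM in the 8 gates and could not be tested in any of them.

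Over the 8 BM gates, 50 member tests were made for each comparison. Against WT, 3 rose and 2 fell in Y665F (5 of 50, with 14 at an unadjusted p under 0.05), beside 9.16% of all gene tests (3.74% higher and 5.41% lower). Against Y665H, 4 rose and 3 fell (7 of 50, with 23 unadjusted), beside 16% (7.3% higher and 8.71% lower). Of all 57954 gene tests, 14543 against WT and 18952 against Y665H had an unadjusted p under 0.05. In Y665H against WT, edgeR passed 0 of 50 (2 unadjusted) and DESeq2 0, beside 0% of all 57954 gene tests (2224 unadjusted). The share of member tests that passed edgeR was thus near the background. With the replicate block, 8 of 50 passed against WT beside 12.4% of all gene tests, and 7 of 50 against Y665H beside 19.2%. With DESeq2, 4 of 50 passed against WT beside 4.56%, and 4 of 50 against Y665H beside 8.27%. The Y665F comparisons share their Y665F libraries and are not separate evidence.

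**Figure D4:**
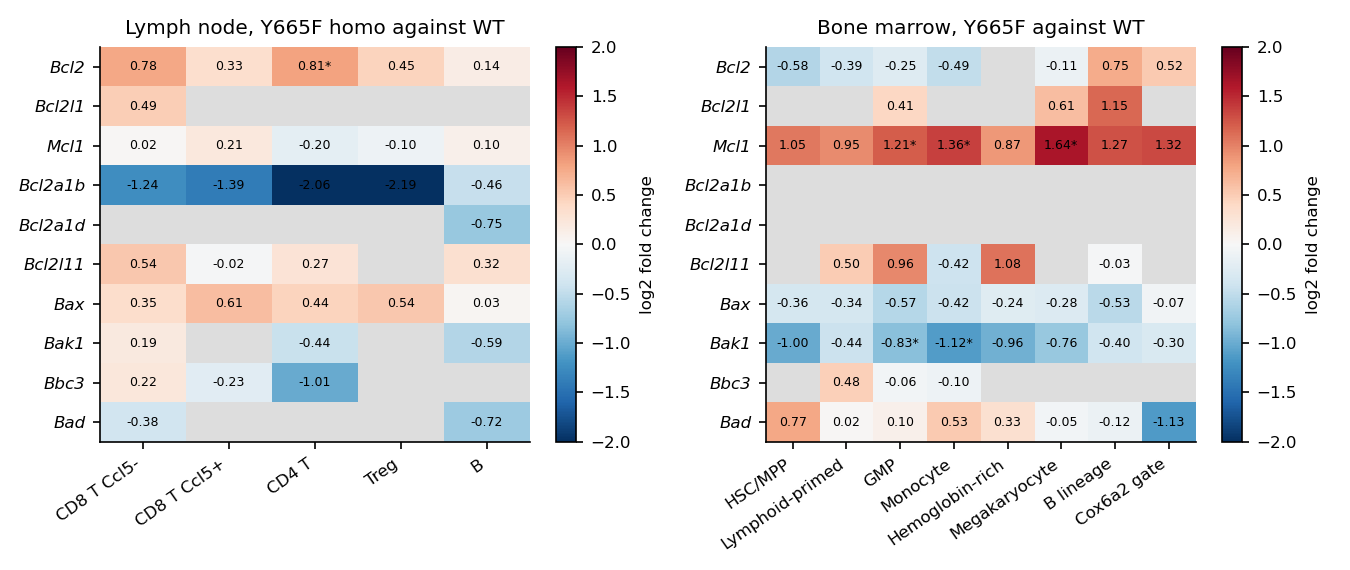
Log2 fold change of each member (rows) by cell class (columns) for LN Y665F homozygotes against WT and BM Y665F against WT, with an asterisk where the adjusted p was under 0.05 and grey where the member was not tested. LN holds 1 asterisk (Bcl2 in CD4 T cells), and BM holds 5, for Mcl1 in 3 gates and Bak1 in 2.

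Several library features moved with genotype beside these BM results. Gm42418 took 1.88% to 2.02% of all UMIs in the WT and Y665H libraries and 3.48% and 3.81% in the Y665F libraries. The list of 7 neutrophil genes summed in GMP cells to 66.3 and 23.6 CPM in the WT, 73.3 and 31.3 CPM in the Y665H and 148 and 197 CPM in the Y665F libraries, and in monocyte cells to 11.7 and 11.1, 24.3 and 2.30, and 174 and 149 CPM. Of the 5 list genes tested in GMP cells 4 rose, and of the 4 tested in monocyte cells all 4 rose. Up to 2 of the 7 were at 0 in the WT and Y665H GMP sums, and none in Y665F. In spleen neutrophils, the same list took 17.0% to 34.9% of the UMIs. The 13 immediate early and stress genes summed in GMP cells to 535 and 911 CPM in WT and 584 and 1043 CPM in Y665F, where 3 of 12 tested rose (Egr1, Jund and Nr4a1) and 1 fell (Ier2). The part of these features in the Mcl1 and Bak1 results was not tested.

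Early erythroid cells could not be compared with the planned gate, because Car1 dominated it and left 101 and 0 barcodes in the Y665F libraries. With a gate that asked for detected erythroid markers instead, chosen after the data were seen, Mcl1 was 21.2 and 20.6 CPM in the WT, 17.1 and 25.7 CPM in the Y665H and 37.8 and 75.7 CPM in the Y665F libraries (log2 fold change 1.18, SE 0.35, adjusted p = 0.0294), where 11% of all genes passed. That call was lost without either WT library, without Y665F replicate 2 and with DESeq2.

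Over all BM barcodes, Mcl1 rose from 30.9 and 28.8 CPM in WT to 61.2 and 96.0 CPM in Y665F (log2 fold change 1.22, adjusted p = 0.00208). Bak1 fell from 50.8 and 34.7 CPM to 23.7 and 23.5 CPM (-1.0, adjusted p = 0.00329), a call that held without each BM library in turn. Bcl2l1, needed in late erythroid cells, rose from 5.52 and 5.32 CPM to 10.8 and 13.8 CPM (1.0, adjusted p = 0.00744), and Bax fell from 186 and 201 CPM to 144 and 116 CPM (-0.76, adjusted p = 0.0294). The Bcl2l1 call was lost without Y665F replicate 2, and the Bax call without that library, WT replicate 2 or either Y665H library. Other members separated Y665F from WT as well. Bbc3 was 5.98 to 6.82 CPM in WT and 8.68 to 9.19 CPM in Y665F. Bcl2a1b was 0.992 to 1.01 CPM in WT and 0.342 to 0.425 CPM in Y665F. Bcl2a1d was 0.496 to 0.543 CPM in WT and 0.252 to 0.324 CPM in Y665F. The Bcl2a1b and Bcl2a1d values in Y665F rested on 40 and 30 UMIs. In these sums, 31.3% of all genes passed, and the mix of cell types differed between libraries.

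**Figure D5:**
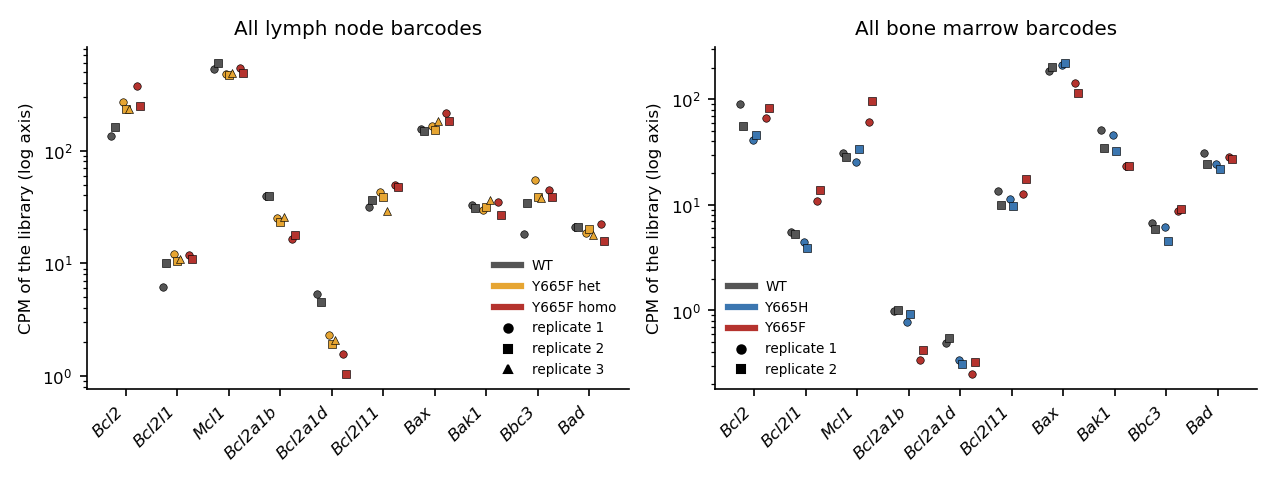
Level of each member over all barcodes of an LN or BM library (CPM, log axis), where each point is a library, its shape is the replicate number and its colour the genotype. In LN, Bcl2, Bcl2l1, Bcl2l11, Bax and Bbc3 were higher and Bcl2a1b and Bcl2a1d lower in both homozygous libraries than in both WT libraries. In BM, Mcl1, Bcl2l1 and Bbc3 were higher and Bak1, Bax, Bcl2a1b and Bcl2a1d lower in both Y665F libraries than in both WT libraries. The share of all genes that separated in this way was not counted.

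Other genes of the pathway passed in BM gates. The 5 with the largest log2 fold changes in Y665F against WT were Bok, a BAX-like gene, in B lineage cells at -3.17 (SE 0.50, adjusted p = 0.00856), Bid, the BH3-only gene that links death receptors to mitochondria, in GMP cells at -1.5 (SE 0.23, adjusted p = 1.40e-04), Bcl2l2, the survival gene for BCL-w, in GMP cells at 1.45 (SE 0.47, adjusted p = 0.0278), Birc2, an inhibitor of apoptosis, in hemoglobin-rich cells at 1.38 (SE 0.43, adjusted p = 0.0359), and Htra2, a mitochondrial protease, in megakaryocyte cells at -1.35 (SE 0.31, adjusted p = 0.00736). With DESeq2, Bok, Bid and Htra2 passed there as well, Birc2 did not (adjusted p = 0.212), and Bcl2l2 received no adjusted p. Against Y665H, they were Bok in B lineage cells at -2.72 (SE 0.53, adjusted p = 0.0255), Bcl2l2 in lymphoid-primed cells at 2.60 (SE 0.79, adjusted p = 0.0284), Htra2 in the Cox6a2 gate at -1.59 (SE 0.53, adjusted p = 0.0467), Apaf1, the scaffold of the apoptosome, in monocyte cells at 1.47 (SE 0.41, adjusted p = 0.0186), and Xiap, a caspase inhibitor, in hemoglobin-rich cells at 1.40 (SE 0.36, adjusted p = 0.0129). None of these 5 passed DESeq2, which gave Apaf1 an adjusted p of 0.0615 and Xiap one of 0.106 and the other 3 none. Of 108 edgeR tests on the relatives and downstream genes over the 8 gates, 14 passed against WT beside 9.16% of all gene tests, and 26 against Y665H beside 16%. Of these calls, 6 and 14 also passed DESeq2, among them, against Y665H, Cycs (adjusted p = 3.34e-06), Bcl2l12 (adjusted p = 8.64e-05) and Bid (adjusted p = 1.13e-04) in GMP cells. These 6 and 14 count edgeR calls alone. Against WT, DESeq2 passed no further gene of the lists, so that its 6 of 108 stand beside 4.56% of all gene tests. Against Y665H, it also passed genes that edgeR did not. There it passed 3 downstream genes in B lineage cells, Htra2 among them, and 1 in monocyte cells, which was not Apaf1. The 14 are thus not to be set against the DESeq2 share of 8.27%, which runs over all gene tests. In GMP cells against WT, 1 of 7 tested BCL2 relatives rose (Bcl2l2) and 2 fell (Bid and Bcl2l12), with a median log2 fold change of -0.09 beside a median of 0.04 over all genes, of which 9.84% rose and 13.3% fell. Of the downstream genes, Apaf1 rose there, and Cycs (cytochrome c) and Htra2 fell. DESeq2 passed Bid, Bcl2l12 and Cycs in GMP cells, and not Apaf1 (adjusted p = 0.0993) or Htra2 (adjusted p = 0.0915). In HSC/MPP cells, no gene of either list passed edgeR against WT (0 of 4 relatives and 2 of 6 downstream genes had an unadjusted p under 0.05), and 0 passed DESeq2, which gave an adjusted p for 1 of these 10, beside 0.404% of all genes in edgeR. The unadjusted share of all genes in this gate is not given.

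The genes most like 3 of the survival genes over the sums of libraries and classes are given as a description, since the sums of a library share its depth and cell types differ in RNA makeup. Over 35 LN sums, the highest Pearson r with Bcl2 was 0.84 for each of Rps2, Rpl3 and Ahnak, with Bcl2l1 0.82 for Atp8b2, 0.77 for Znrf3 and 0.74 for Tnfaip3, and with Mcl1 0.94 for Ctss and 0.90 for Aldh2 and Fth1. Over 48 BM sums, it was with Bcl2 0.90 for Sp110, 0.89 for H2-DMa and 0.88 for Igfbp4, with Bcl2l1 0.69 for Bach1, 0.67 for Prep and 0.66 for Prpf3, and with Mcl1 0.87 for Ptp4a2, Qk and Zranb1. The Bcl2l1 sums held few UMIs, with 0 in some LN and BM sums, and their correlations are weak ground for any reading.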

How the data were processed

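Single-cell expression was measured in 16 libraries, and the 7 LN libraries had matching T-cell receptor libraries. The deposited counts, made by the authors with Cell Ranger (5.0 in the submitters' notes, which also list Seurat 4.0), are UMIs per gene and barcode on GRCm38, for barcodes that the authors' pipeline called cells. The labels name a 3′ kit and the study's methods a 5′ kit. The T-cell receptor UMI counts, deposited per contig, were used to check the gates. Groups were taken from the labels, which do not say whether the libraries of a group came from separate animals, so that p-values measure the spread between these libraries. A barcode stayed in when it showed 200 or more genes and its mitochondrial share did not exceed 10%. No doublet caller was run, and barcodes with T and B markers together were kept out of the LN and spleen gates. A BM barcode went to the marker panel with the largest excess over its expected share, with at least 3 panel UMIs and an excess of at least 3, and a BM class needed 30 barcodes in every library. The UMIs of a class were added up within each library, and the sums went into edgeR 4.0.16 (quasi-likelihood, TMM, filterByExpr, R 4.3.3), all libraries of a tissue in 1 fit, with Benjamini-Hochberg adjustment over all genes of a class. A test passed at an adjusted p under 0.05, and DESeq2 1.42.0 was an alternative. The steps were tested on simulated data. Of changes of 1 on the log2 scale, 14% were recovered in HSC/MPP, 34% in GMP, 39% in LN CD4 T and 68% in LN Ccl5- CD8 T cells. Of changes of 2 on that scale, 94%, 94%, 80% and 91% were recovered in the Y665F comparisons of the same order. A test that did not pass is thus weak ground for the absence of a smaller change. Intervals cover counting error only, and a count of 0 allows up to 3 counts. The members, gene lists and tests were chosen with earlier results of these data known. All 10 members are accounted for, and of the other pathway genes those that passed are named, up to 5 a comparison by size of log2 fold change, and some of the downstream genes are not reported here. The labels do not say what a replicate number shares. Deviations of same-numbered libraries from their group means correlated between -0.09 and 0.05 in LN, and in BM between -0.10 and 0.08 for WT with Y665F, between 0.09 and 0.19 for WT with Y665H and between 0.12 and 0.24 for Y665H with Y665F. Not every pair was over 0.1, so the numbers were not taken to pair the libraries, and a fit with the replicate number as a block was an alternative.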

Additional observations from a re-analysis of the deposited data

How the results depend on the processing

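Of the 16 calls on members, 16 kept their direction and call with RLE normalization and with no mitochondrial limit, 15 with no low-count filter, with the top 5% of barcodes by UMIs left out and with the replicate block (each lost the homozygous CD4 T call of Bcl2), 14 with stricter gates and with at least 500 genes per barcode, 8 with DESeq2 and 9 with an added fold limit of 1 on the log2 scale, which ended the 4 LN calls and those of Bak1 (against WT and Y665H) and Bax in GMP cells. Of the 10 BM calls that the gates on detected markers could repeat, an alternative chosen after the data were seen, 7 held. No call changed sign under any alternative run. In LN homozygotes against WT, the 1 passed test became 0 with the fold limit, with DESeq2, at 500 genes, with T-cell receptor contigs required, with stricter gates and without the 2 shallow libraries, and 2 with CD8 T cells not split or with no mitochondrial limit, and leaving out each library gave 0 to 2. In heterozygotes against WT, the 1 became 0 with the fold limit and with DESeq2, 2 at 500 genes, without the low-count filter and without the 2 shallow libraries, and 3 with CD8 T cells not split. In the trend, the 2 became 0 with the fold limit, with DESeq2 and without the 2 shallow libraries and 1 at 500 genes, and leaving out each library gave 0 to 2. In BM Y665F against WT, leaving out each library gave 0 to 6 passed tests against 5, and the replicate block gave 8. In Y665F against Y665H, DESeq2 gave 4 against 7, the replicate block gave 7, and leaving out each library gave 0 to 13. The counts of 0 came without Y665F replicate 2 (against WT) and without Y665H replicate 1 (against Y665H), and 11 of the 12 BM calls were lost without Y665F replicate 2. In LN, the replicate block gave counts of 1, 1, 0 and 2, where the homozygous call was Bcl2 in Ccl5- CD8 T cells (adjusted p = 0.0407) in place of CD4 T cells. In BM, where the number coincides with sex, the block ended no call. A call gained or lost under the block is not read as a stronger or weaker effect. The share of all gene tests that passed moved between settings too. In BM, edgeR, DESeq2 and the block passed 9.16%, 4.56% and 12.4% against WT, and 16%, 8.27% and 19.2% against Y665H. For the other settings this share is not given, so their counts have no background beside them and describe stability alone. The mean number of Bcl2 UMIs per Bcl2l11 UMI in homozygous LN Ccl5- CD8 T cells moved from 6.39 to 4.41 at 500 genes. The causes were not tested. The depth of LN Y665F het replicate 3 and homo replicate 1 limits what can be said of members at low level in LN.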
